A study of Sus scrofa with 22 samples.

Results

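The annexins were examined as a gene family in laser capture microdissection (LCM) RNA-seq data of the porcine endometrium. The family was defined by 10 named genes, ANXA1 to ANXA8, ANXA10 and ANXA11, of which those present in at least 1 of the 3 count tables were kept. Of the 10 genes, 9 were listed, each in all 3 tables, out of 12401 genes listed in total, and ANXA10 was listed in none.

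The data comprise 22 libraries cut from the luminal (LE) and glandular (GE) epithelium and the stroma (S) in frozen endometrium of 8 gilts on Day 12. All gilts were prepuberal crossbreeds of German Landrace and Piétrain in which ovulation had been synchronized with PMSG and hCG. The 4 gilts of the pregnant group had been inseminated with semen and carried filamentous conceptuses, whereas the 4 gilts of the cyclic control group had received semen supernatant of the same boar without sperm. LE and GE were represented by all 8 gilts and S by 3 gilts per group. Library titles carry the same numbers in LE, GE and S, and the study gives the number in a sample ID as that of the animal. A shared number was therefore read as the same gilt. By the study's own account, S was captured as an area and not as a single kind of cell.

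Annexins are soluble proteins that bind to negatively charged phospholipids of membranes when calcium rises. They take part in membrane trafficking, exocytosis, membrane repair and the organisation of the cortical actin, and several of them work through S100 proteins or related calcium sensors. In the endometrium they are known from epithelial and stromal cells, and extracellular annexins are known for anti-inflammatory (ANXA1), plasminogen binding (ANXA2) and anticoagulant (ANXA5) roles.

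The calcium-binding loop of an annexin repeat starts with the amino acids glycine, any residue, glycine and threonine, and an acidic residue follows further down the repeat. The corresponding codons (GGN, any codon, GGN and ACN, followed in frame after 38 codons by a codon for an acidic residue) were searched in the coding sequences of the NCBI annotation of Sscrofa11.1. At least 1 such loop was found in 334 of 20665 protein-coding genes (1.62%) and at least 3 in only 6 genes, all of them annexins. ANXA6, whose core is duplicated, held 5 loops. ANXA5, ANXA7, ANXA8 and ANXA11 held 3 loops each, ANXA1, ANXA2 and ANXA4 held 2 each and ANXA3 held 0 in an incomplete model of 121 codons. The loops of ANXA8, ANXA4 and ANXA5 are shown because these were the members with higher mRNA in LE of pregnant gilts, and the capitals mark the glycine-to-threonine codons. ANXA8 is encoded on chromosome 14 (minus strand), ANXA4 on chromosome 3 (minus strand) and ANXA5 on chromosome 8 (plus strand), and each range includes the intron that the loop spans.
ANXA8 loop 1 (chr14:88331114-88332303): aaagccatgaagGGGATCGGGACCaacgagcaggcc
ANXA8 loop 2 (chr14:88328812-88329613): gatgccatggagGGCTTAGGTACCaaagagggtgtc
ANXA8 loop 3 (chr14:88323163-88324481): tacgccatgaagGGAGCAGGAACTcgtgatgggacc
ANXA4 loop 1 (chr3:72649019-72654521): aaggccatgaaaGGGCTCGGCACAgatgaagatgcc
ANXA4 loop 2 (chr3:72644162-72645375): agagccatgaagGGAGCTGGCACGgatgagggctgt
ANXA5 loop 1 (chr8:102401313-102402801): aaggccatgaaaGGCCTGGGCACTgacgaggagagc
ANXA5 loop 2 (chr8:102404425-102406188): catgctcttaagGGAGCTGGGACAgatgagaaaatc
ANXA5 loop 3 (chr8:102418804-102419066): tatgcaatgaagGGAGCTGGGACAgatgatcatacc

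The 250 bases before the annotated starts of ANXA8 and ANXA5 are shown because both genes had higher mRNA in pregnant gilts. The ANXA4 model has no complete 5' end, so that none was read for it. Motifs were searched by their letters on both strands and are in capitals where found. These were the palindromic estrogen response element (GGTCA and TGACC spaced by 3 bases of any kind), the AP-1 site (TGANTCA), the GAS element bound by STAT factors (TTCNNNGAA), the GC box (GGGCGG) and the TATA box (TATAAA). The distal start of ANXA8 had 1 GAS element, a match present in 6.12% of 19270 promoters of the same length, and 56.8% G and C. The second start of ANXA8 had 1 GC box, found in 46% of promoters. The promoters counted were those before the outermost start of each gene, whereas the second start of ANXA8 lies inside its gene model. ANXA5 had none of the 5 motifs, 37.6% G and C and 0 CG pairs. The estrogen response element was matched in 2 of the 19270 promoters and in no annexin promoter.
ANXA8 distal start (chr14:88340717-88340966, minus strand): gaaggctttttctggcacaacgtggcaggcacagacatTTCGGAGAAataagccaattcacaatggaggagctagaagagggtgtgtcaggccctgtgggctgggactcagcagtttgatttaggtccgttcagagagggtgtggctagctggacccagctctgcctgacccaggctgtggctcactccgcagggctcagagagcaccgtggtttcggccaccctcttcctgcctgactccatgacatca
ANXA8 second start (chr14:88337497-88337746, minus strand): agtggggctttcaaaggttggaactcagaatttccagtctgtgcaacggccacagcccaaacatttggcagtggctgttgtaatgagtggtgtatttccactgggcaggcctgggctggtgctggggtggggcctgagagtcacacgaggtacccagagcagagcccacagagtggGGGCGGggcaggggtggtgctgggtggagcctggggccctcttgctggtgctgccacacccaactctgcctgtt
ANXA5 start (chr8:102387583-102387832, plus strand): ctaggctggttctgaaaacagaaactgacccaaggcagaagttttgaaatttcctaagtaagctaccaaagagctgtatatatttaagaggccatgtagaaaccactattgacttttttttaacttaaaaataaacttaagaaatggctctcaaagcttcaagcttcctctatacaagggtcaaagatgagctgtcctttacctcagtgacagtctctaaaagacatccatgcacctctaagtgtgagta

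Depth on listed genes ranged from 893912 counts (pregnant LE of gilt 01) to 4020796 counts. The labelled cell types were checked with marker genes. Epithelium markers (EPCAM, CDH1, KRT8, KRT18, KRT19, CLDN4) summed to 2427 to 3024 CPM (counts scaled to a common library size) in control libraries labelled S and to 2657 to 3241 CPM in control LE. Fibroblast markers (COL1A1, COL1A2, COL3A1, DCN, LUM, PDGFRA) summed to 4535 to 8241 CPM in control libraries labelled S and to 10972 to 16393 CPM in control LE. In control GE the epithelium markers summed to 729 to 2164 CPM and the fibroblast markers to 4207 to 44868 CPM. These markers thus did not set the control libraries labelled S apart from epithelium. Nor did they mark control GE as more epithelial than control S. LE, GE and S are therefore used below as the labels of the libraries. The pregnant S library of gilt 01 (fibroblast markers 60573 CPM, epithelium 1147 CPM) and the control GE library of gilt 02 (44868 and 729 CPM) stood apart from the other libraries, followed by pregnant GE of gilt 01 (28632 and 2214 CPM). Pregnant LE of gilt 01 had the highest smooth muscle marker sum of LE (4969 CPM, against at most 630.8 CPM in the other LE libraries). Of 6 conceptus trophoblast markers, 0 were listed in any table. Of 6 leukocyte markers, 2 were listed in LE, 3 in GE and 2 in S, and those listed summed to 25.4 to 106.9 CPM. The leukocyte sums of GE thus rest on another number of genes than those of LE and S. In bulk RNA of captured areas, fewer cells of a type and less RNA per cell cannot be told apart.

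Between pregnant and control gilts, ANXA8 was the annexin with the largest difference in all 3 cell types, and it was higher in pregnant gilts in each of them. ANXA4 and ANXA5 were also higher in LE of pregnant gilts. In LE, 3 of the 9 annexins passed the FDR threshold of 1% in edgeR, all higher in pregnant gilts, where 10% of all 11415 tested genes passed it in either direction (6.33% higher, 3.71% lower). For GE and S the threshold was an unadjusted p value of 0.0021, and ANXA8 was the 1 annexin that passed it in each, beside 0.694% of 11676 genes in GE (0.574% higher, 0.12% lower) and 1.47% of 11532 genes in S (0.425% higher, 1.05% lower). No annexin was called lower. The median log2 fold change (FC, pregnant minus control) of the 9 annexins was 0.27 in LE, 0.29 in GE and 0.38 in S, beside 0.01, −0.02 and 0.08 for all genes.

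**Figure D1:**
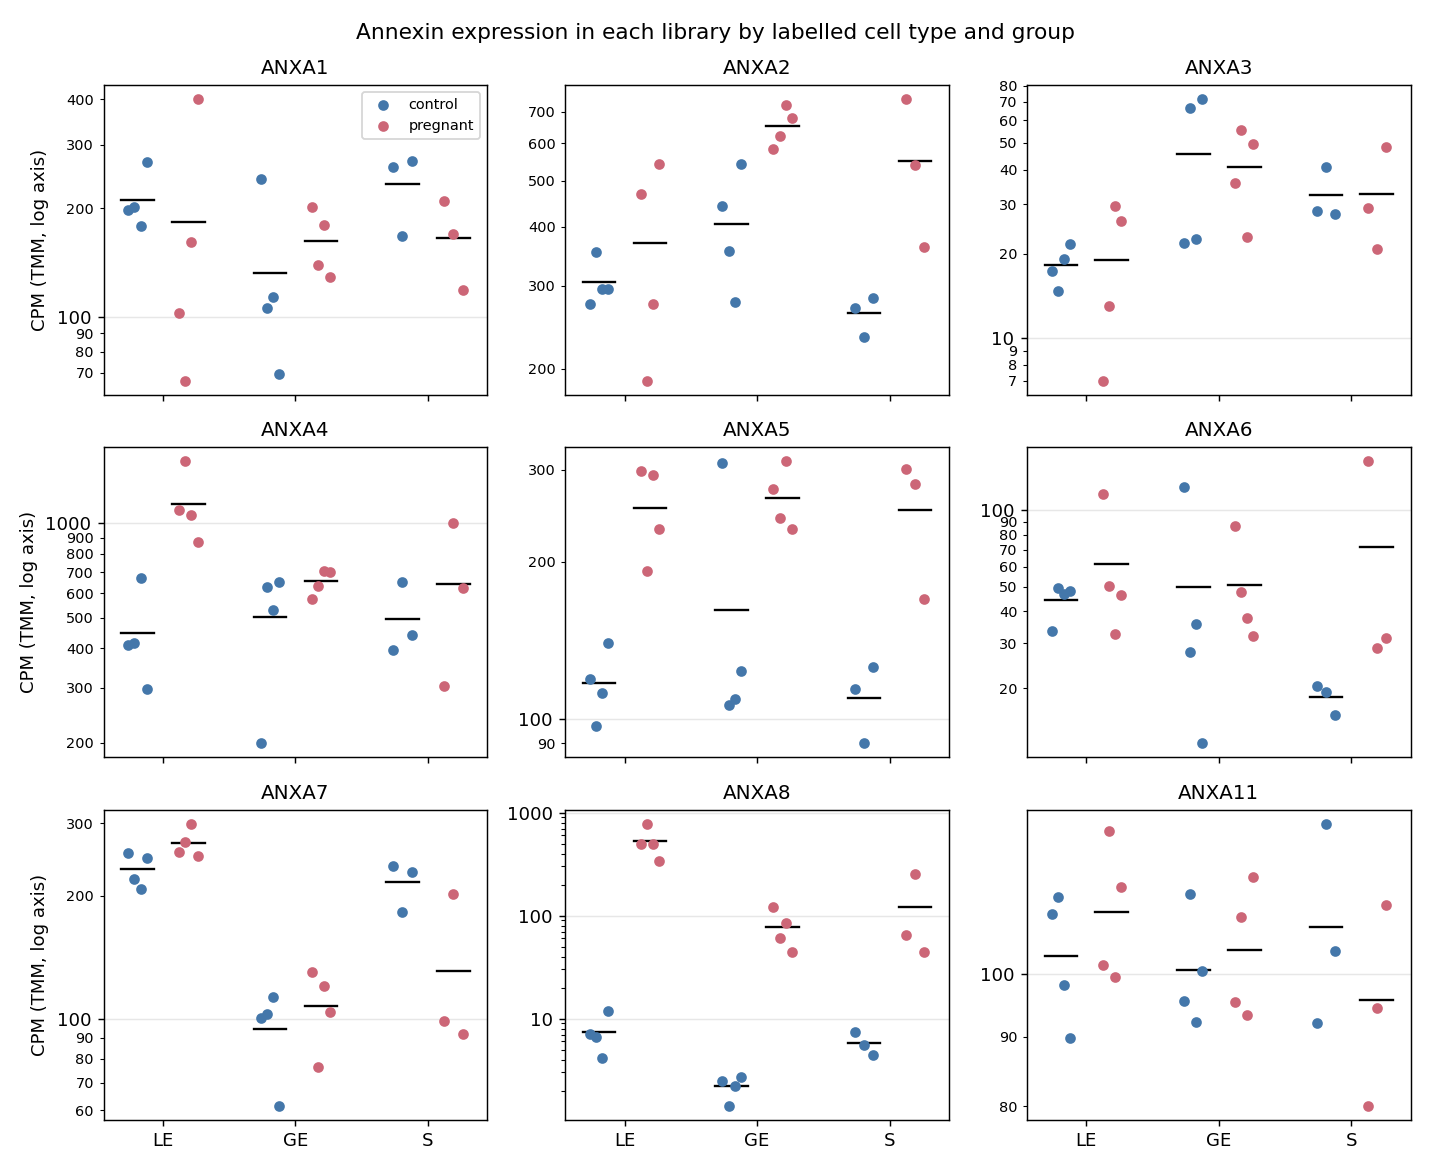
CPM of the 9 listed annexins in each library on a logarithmic axis, by labelled cell type (LE, GE, S) and group (control blue, pregnant red), with black lines for the group means. ANXA8 is the panel in which the pregnant libraries lie far above the control libraries for all 3 cell types, whereas ANXA11 spans only 80.1 to 128.9 CPM over all 22 libraries.

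**Figure D2:**
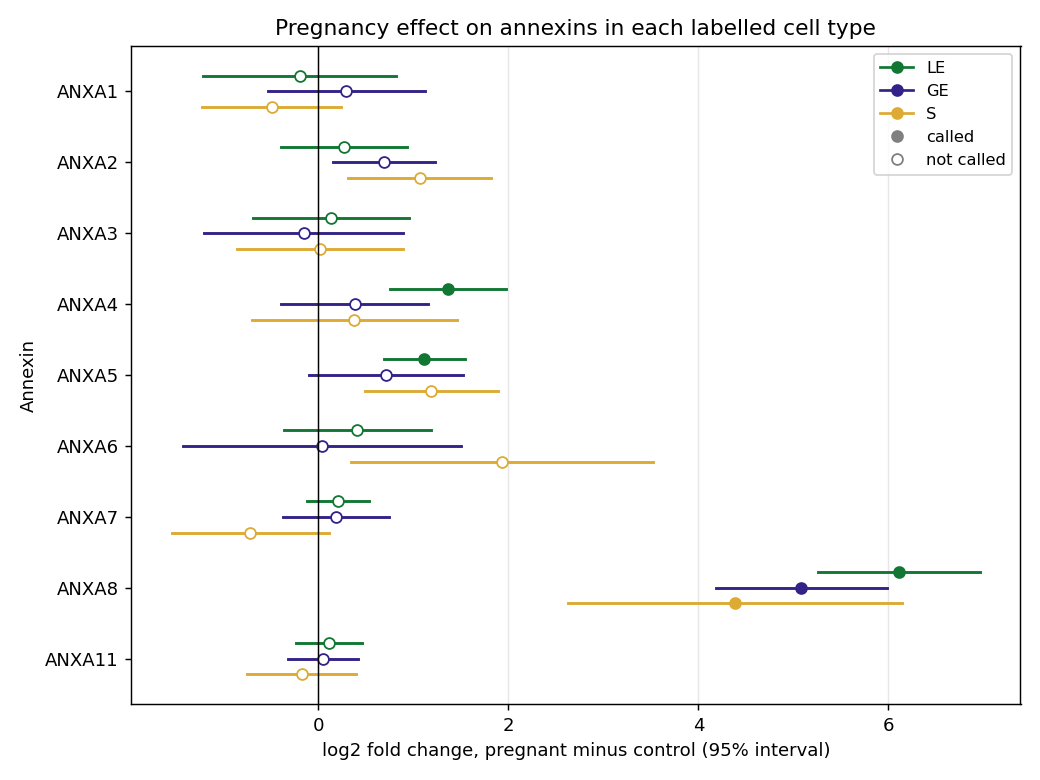
log2 FC of each annexin, pregnant minus control, with its 95% interval from the edgeR fit of each cell type, filled where the threshold of the cell type was passed. ANXA8 lies between 4.38 and 6.11, and ANXA4 and ANXA5 are filled for LE.

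ANXA8 is an annexin of epithelia that binds to late endosomes and to actin. Its values in control LE were 7.01, 6.68, 4.18 and 12.0 CPM (gilts 02, 04, 06 and 13), and in pregnant LE 493.8, 780.0, 499.4 and 341.4 CPM (gilts 01, 03, 05 and 14). The lowest pregnant library thus lay 28.5-fold above the highest control library. The log2 FC was 6.11 ± 0.38 (SE; 69.2-fold; edgeR quasi-likelihood test, FDR = 1.44e-05), and ANXA8 took rank 10 of the 11415 genes by p value. When each gilt was left out in turn, the call was kept and the log2 FC stayed between 5.86 and 6.46.

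In GE, ANXA8 was near the detection limit in controls, with 2.47, 1.43, 2.22 and 2.70 CPM from 3 to 10 counts per library. As genes had been filtered by CPM at a cutoff that is not given, ANXA8 may be listed in GE through its pregnant libraries alone. A gene listed in that way could hardly be called lower there. The pregnant GE libraries had 121.1, 60.98, 84.64 and 44.19 CPM (gilts 01, 03, 05 and 14). The groups were separated by 16.4-fold between the highest control and the lowest pregnant library. This gave a log2 FC of 5.08 ± 0.40 (SE; 33.9-fold; edgeR quasi-likelihood FDR = 0.00519), the smallest p value of all 11676 genes in GE. Without the GE libraries of gilts 01 and 02, the log2 FC was 4.83 (edgeR FDR = 0.0294).

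In libraries labelled S, ANXA8 had 7.48, 5.55 and 4.39 CPM in control gilts 02, 04 and 13 and 64.73, 254.5 and 44.42 CPM in pregnant gilts 01, 05 and 14. All pregnant libraries were above all control libraries, and gilt 05 was 5.73-fold above gilt 14. In S the log2 FC amounted to 4.38 ± 0.75 (SE; 20.8-fold; edgeR quasi-likelihood FDR = 0.0995), which passed the threshold of S on the unadjusted p value. The call was lost when the control gilt 02, 04 or 13 was left out (edgeR FDR = 0.364, 0.213 and 0.421), whereas without gilt 05 the log2 FC fell to 3.22 and without gilt 01 it was 4.65. Epithelium markers were at 1147, 4008 and 2153 CPM in the pregnant S libraries of gilts 01, 05 and 14, so that gilt 05 was highest in both, and their part in the difference was not tested.

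ANXA4 is an annexin of polarized epithelia that binds to the apical region and affects chloride channels and membrane repair. It had 408.9, 416.3, 671.6 and 296.2 CPM in control LE and 1102, 1578, 1064 and 873.4 CPM in pregnant LE (gilts in the same order). The groups did not overlap, with gilt 03 highest among pregnant and gilt 06 highest among control libraries. The log2 FC was 1.36 ± 0.28 (SE; 2.58-fold; edgeR quasi-likelihood FDR = 0.00642). This call was close to the threshold: leaving out gilt 01, 02, 03, 04, 05 or 13 gave edgeR FDR values of 0.0105, 0.0244, 0.0155, 0.0259, 0.016 and 0.0202, with log2 FC of 1.18 to 1.40. Epithelium marker sums of LE ranged from 2657 to 3241 CPM in control and from 2796 to 4025 CPM in pregnant gilts, with 2 of the 6 markers called higher and 2 lower, and their part in the difference was not tested.

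In GE, ANXA4 had 199.3, 629.1, 528.9 and 651.5 CPM in control and 572.9, 631.2, 707.9 and 701.7 CPM in pregnant gilts. The control library of gilt 02, which had the lowest epithelium marker sum, was the low value, and the remaining libraries overlapped. The log2 FC was 0.38 ± 0.34 (SE; edgeR quasi-likelihood FDR = 0.82, 95% interval −0.40 to 1.16), and without gilts 01 and 02 it was 0.17. Libraries labelled S ranged from 394.5 to 651.6 CPM in control gilts and from 302.6 (gilt 01) to 1001 CPM (gilt 05) in pregnant gilts, with a log2 FC of 0.38 ± 0.46 (SE; edgeR quasi-likelihood FDR = 0.817) that became −0.11 without gilt 05.

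ANXA5 binds to phosphatidylserine on the outer face of membranes and prevents clotting there. In LE it had 119.2, 96.99, 112.4 and 139.7 CPM in control and 297.7, 192.1, 293.6 and 231.5 CPM in pregnant gilts. All pregnant libraries were above all control libraries. The log2 FC was 1.11 ± 0.19 (SE; 2.16-fold; edgeR quasi-likelihood FDR = 0.00289). The call was lost without gilt 02, 04, 05 or 06 (edgeR FDR = 0.0112, 0.0139, 0.011 and 0.0135), with log2 FC between 1.03 and 1.12, and with the 6 gilts that had an S library (log2 FC 1.21, edgeR FDR = 0.0108).

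The same gene in GE had 308.9, 106.4, 109.1 and 123.4 CPM in control and 275.6, 242.7, 311.0 and 230.8 CPM in pregnant gilts. The control library of gilt 02 was as high as the pregnant libraries, whereas the other 3 control libraries were below all of them. With all libraries the log2 FC was 0.71 ± 0.36 (SE; edgeR quasi-likelihood FDR = 0.679). Without gilt 02 it was 1.23 and passed the threshold of GE on the unadjusted p value (edgeR FDR = 0.141), as it did without gilts 01 and 02 (log2 FC 1.21, edgeR FDR = 0.361). That library also carried 44868 CPM of fibroblast and 8061 CPM of smooth muscle markers, against at most 15973 and 328.6 CPM in the other control GE libraries, and their part in its ANXA5 level was not tested.

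Libraries labelled S had 114.2, 90.0 and 125.9 CPM of ANXA5 in control and 301.0, 281.9 and 169.7 CPM in pregnant gilts, without overlap. The log2 FC of 1.19 ± 0.30 (SE; edgeR quasi-likelihood FDR = 0.189) did not pass the threshold. It passed with the exact test (FDR = 0.0438) and likelihood ratio test (FDR = 0.0402) of edgeR, with DESeq2 (FDR = 0.0177) and without gilt 14 (edgeR quasi-likelihood FDR = 0.122). The first 3 of these called 440, 463 and 512 of 11532 genes in S, beside 170 in the quasi-likelihood test. ANXA5 therefore had log2 FC of similar size in LE and S (1.11 and 1.19).

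ANXA2 forms a complex with S100A10 that links membranes to actin and binds plasminogen on the cell surface. In GE it had 442.3, 355.8, 276.8 and 542.9 CPM in control and 582.5, 621.0, 723.5 and 679.1 CPM in pregnant gilts. All pregnant values were above the control values, with 1.07-fold between the nearest libraries. The epithelium marker sums of GE did not overlap either (729 to 2164 CPM in control and 2214 to 3120 CPM in pregnant gilts; 5 of 6 markers above 0, median log2 FC 0.55, 0 called), and their part in the differences of GE was not tested. The log2 FC was 0.69 ± 0.24 (SE; edgeR quasi-likelihood FDR = 0.479). In S, the values were 269.3, 233.8 and 282.6 CPM in control and 744.4, 540.1 and 362.7 CPM in pregnant gilts, again without overlap. For S the log2 FC was 1.07 ± 0.32 (SE; edgeR quasi-likelihood FDR = 0.256) and 0.76 without gilt 01. Neither passed the threshold. In LE, control libraries ranged from 274.6 to 353.8 CPM and pregnant libraries from 188.5 to 542.6 CPM, so that the groups overlapped (log2 FC 0.27, 95% interval −0.39 to 0.93).

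ANXA1, a glucocorticoid-induced protein with anti-inflammatory actions through formyl peptide receptors, was not called in any cell type. Pregnant LE libraries differed widely, with 102.7, 66.47, 161.1 and 401.1 CPM in gilts 01, 03, 05 and 14, while control LE ranged from 178.2 to 268.3 CPM. Thus 3 pregnant libraries were below and 1 was above all control libraries. The log2 FC in LE was −0.20 (95% interval −1.21 to 0.82), and without gilt 14 it was −0.93 (edgeR quasi-likelihood FDR = 0.037). In GE the log2 FC was 0.29 (−0.53 to 1.12) and 0.75 without gilt 02, whose control library was highest at 240.9 CPM. In S it was −0.49 (−1.22 to 0.24).

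ANXA6, the annexin with a duplicated core, takes part in endocytosis and cholesterol transport. In S it had 20.47, 19.29 and 15.74 CPM in control and 155.4, 28.8 and 31.55 CPM in pregnant gilts. The groups did not overlap, but the pregnant library of gilt 01 was far above the other 2. The log2 FC of 1.93 ± 0.68 (SE; edgeR quasi-likelihood FDR = 0.319) fell to 0.68 without gilt 01. Across all 22 libraries, the 4 with the highest ANXA6 (pregnant S, LE and GE of gilt 01 and control GE of gilt 02) were also the 4 with the highest sums of fibroblast and of blood endothelium markers. On the log2 scale ANXA6 had a Pearson correlation of 0.87 with the fibroblast and 0.80 with the blood endothelium sum, given as a description because libraries share gilts and the top values come from few libraries. In pregnant S, all 6 fibroblast markers and all 5 blood endothelium markers had a positive log2 FC (medians 1.66 and 1.45, 0 called). The 4 lymphatic endothelium markers summed to 27.6 to 251.6 CPM there against 4.97 to 7.87 CPM in control S. Of these 4, 2 were called higher. In control S (gilts 02, 04 and 13), 1, 1 and 2 of the 4 lay above the floor of 3 counts. In each pregnant S library all 4 did. In LE 1 of the 4 was listed and in GE 0. As genes had been filtered by CPM, markers seen mainly in pregnant S could hardly be called lower there. Their calls therefore cannot decide whether lymphatic endothelium differed. The part of the fibroblast and endothelium markers in the values of S was not tested.

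The 2 lowest ANXA4 libraries, control GE of gilt 02 and pregnant S of gilt 01, were the 2 libraries with the lowest epithelium marker sums, and the Pearson correlation of ANXA4 with that sum was 0.69 over the 22 libraries, beside 0.66 for ANXA7 and 0.49 for ANXA8.

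**Figure D3:**
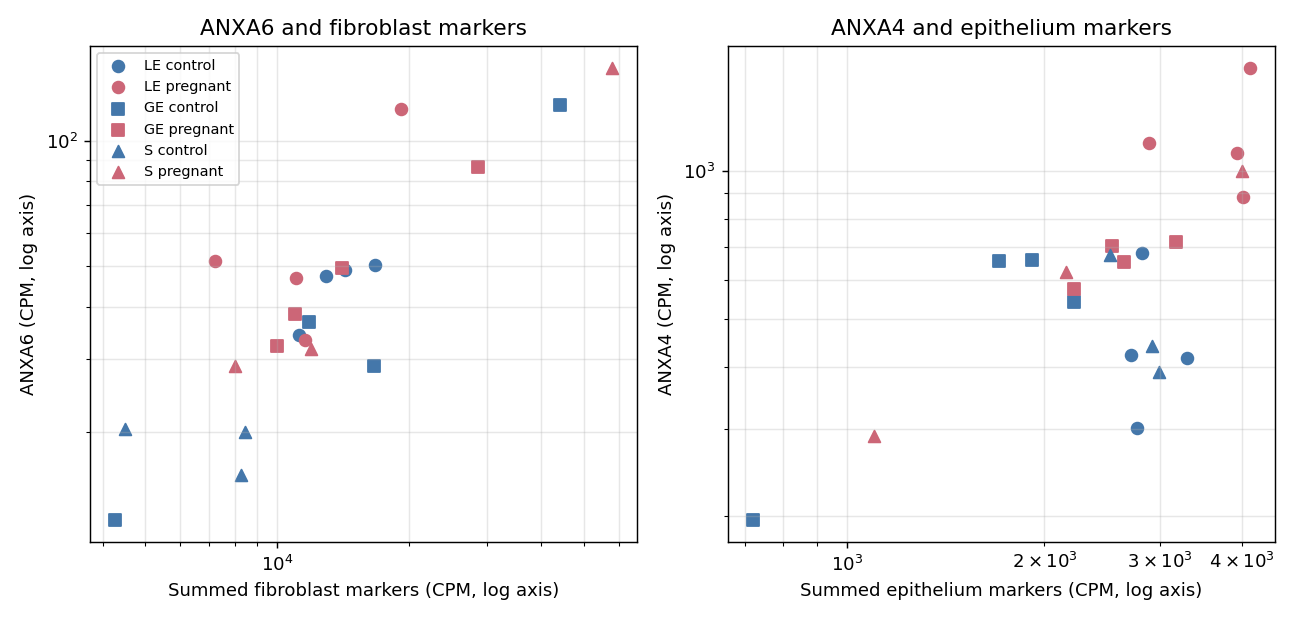
ANXA6 against the summed fibroblast markers (left) and ANXA4 against the summed epithelium markers (right), in CPM of the joint normalization on logarithmic axes, 1 point per library with the shape for the labelled cell type and the colour for the group. The 4 libraries highest in ANXA6 lie at the right end of the fibroblast axis, and the 2 libraries lowest in ANXA4 lie at the left end of the epithelium axis.

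ANXA7 and ANXA11 are the annexins with long amino-terminal regions, and both interact with calcium sensors of the penta-EF-hand family. ANXA7 in LE ranged from 207.8 to 254.6 CPM in control and from 249.6 to 299.6 CPM in pregnant gilts (log2 FC 0.21, 95% interval −0.12 to 0.54). In S it was lower in pregnant gilts 01 and 14 (98.72 and 91.9 CPM) than in any control (182.9 to 236.2 CPM), whereas gilt 05 had 201.6 CPM, so that the groups overlapped (log2 FC −0.72 ± 0.35 SE; edgeR quasi-likelihood FDR = 0.469). ANXA11 had the narrowest range of the family. Its log2 FC was 0.11 in LE, 0.05 in GE and −0.18 in S, and the 95% interval in LE (−0.24 to 0.46) excluded a change of 2-fold.

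ANXA3, which is known from neutrophils and endothelium, gave no call, with 7.0 to 29.6 CPM in LE, 21.8 to 71.6 CPM in GE and 20.8 to 48.1 CPM in S. Its counts are uncertain because 83.1% of the 50-base windows of its model (chr8:73970314-73993039) recur in the neighbouring gene model LOC102167454, and how such reads were assigned is not stated. LOC102167454 was not called either, with log2 FC of −0.07 in LE, 0.06 in GE and −0.27 in S. The other 8 listed annexins shared 0 such windows with any gene.

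Libraries of the 2 groups did not overlap for 3 of 9 annexins in LE, 2 in GE and 4 in S, all with the pregnant libraries higher. Of all genes, 26.7% in LE did not overlap (14% higher, 12.7% lower in pregnant gilts), beside 4.92% in GE (2.72% higher, 2.2% lower) and 17.6% in S (8.18% higher, 9.38% lower).

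Whether the family differed between cell types of the same gilts was examined in a joint fit of all 22 libraries over the 10643 genes listed in all tables, with the gilt as a block and an FDR of 1%. ANXA7 and ANXA8 were the members that passed it. In control gilts, ANXA7 was lower in GE than in LE and was the only annexin called of 9, where 1.84% of all genes were called. In pregnant gilts, ANXA7 and ANXA8 were lower in GE than in LE and also lower in S than in LE, beside 15.8% and 3.14% of all genes. No annexin was called between LE and S or GE and S in control gilts, or between GE and S in pregnant gilts, where 0% of all genes were called in each case by edgeR. At an unadjusted p value below 0.05 these comparisons held 1, 3 and 0 annexins, beside 6.5%, 17.8% and 2.91% of all genes.

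ANXA8 was higher in LE than in GE of the same animal in all 4 control gilts (1.86- to 4.56-fold) and in all 4 pregnant gilts (4.19- to 12.6-fold). The log2 difference GE minus LE was −1.69 ± 0.52 (SE; edgeR FDR = 0.0494) in control and −2.80 ± 0.38 (SE; 6.98-fold lower in GE; edgeR FDR = 0.000335) in pregnant gilts. The latter call was kept without each gilt in turn and without the block. Between S and LE, the log2 difference was −2.36 ± 0.44 (SE; edgeR FDR = 0.00592) in pregnant gilts, with LE 2.0-, 7.79- and 8.21-fold higher in gilts 05, 14 and 01. This call was lost without the gilt block (edgeR FDR = 0.0156), without gilt 01, 03, 04 or 14 (edgeR FDR = 0.0338, 0.0125, 0.0148 and 0.0703) and without the S library of gilt 01 and the GE library of gilt 02 (log2 difference −1.85, edgeR FDR = 0.0336). In control gilts the log2 difference S minus LE was −0.47 (95% interval −1.56 to 0.62).

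ANXA7 was also higher in LE than in GE in every gilt. The ratio was 1.82 to 4.04 in control and 2.02 to 3.48 in pregnant gilts, with log2 differences GE minus LE of −1.31 ± 0.22 (SE; edgeR FDR = 0.00669) and −1.35 ± 0.22 (SE; edgeR FDR = 0.000917). The pregnant call was kept without each gilt in turn but was lost with only the 6 gilts that had an S library. The control call was lost without the block (edgeR FDR = 0.0105), without gilt 01, 02, 04, 05, 13 or 14 (edgeR FDR = 0.0107, 0.0192, 0.0502, 0.0143, 0.0459 and 0.012) and without the GE library of gilt 02 and the S library of gilt 01 (0.01001). In S the gene was close to LE in control gilts (ratio LE over S 1.10 to 1.18; log2 difference −0.10, 95% interval −0.62 to 0.42) and below LE in pregnant gilts (ratio 1.52, 2.75 and 2.79; log2 difference −1.22 ± 0.25 SE, edgeR FDR = 0.00964). The last call was lost without the block (edgeR FDR = 0.0187), without gilt 01, 02, 03, 04, 06 or 14 (edgeR FDR from 0.0113 to 0.0908) and without the S library of gilt 01 and the GE library of gilt 02 (log2 difference −0.97, edgeR FDR = 0.0626). The epithelium marker sum was likewise higher in LE than in GE of every gilt (2706 to 4115 CPM in LE, 718 to 3170 CPM in GE, joint normalization). In pregnant gilts 01, 05 and 14 it was 1100, 4007 and 2154 CPM in S and 2885, 3932 and 4013 CPM in LE. The part of these sums in the cell type differences of ANXA7 and ANXA8 was not tested.

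**Figure D4:**
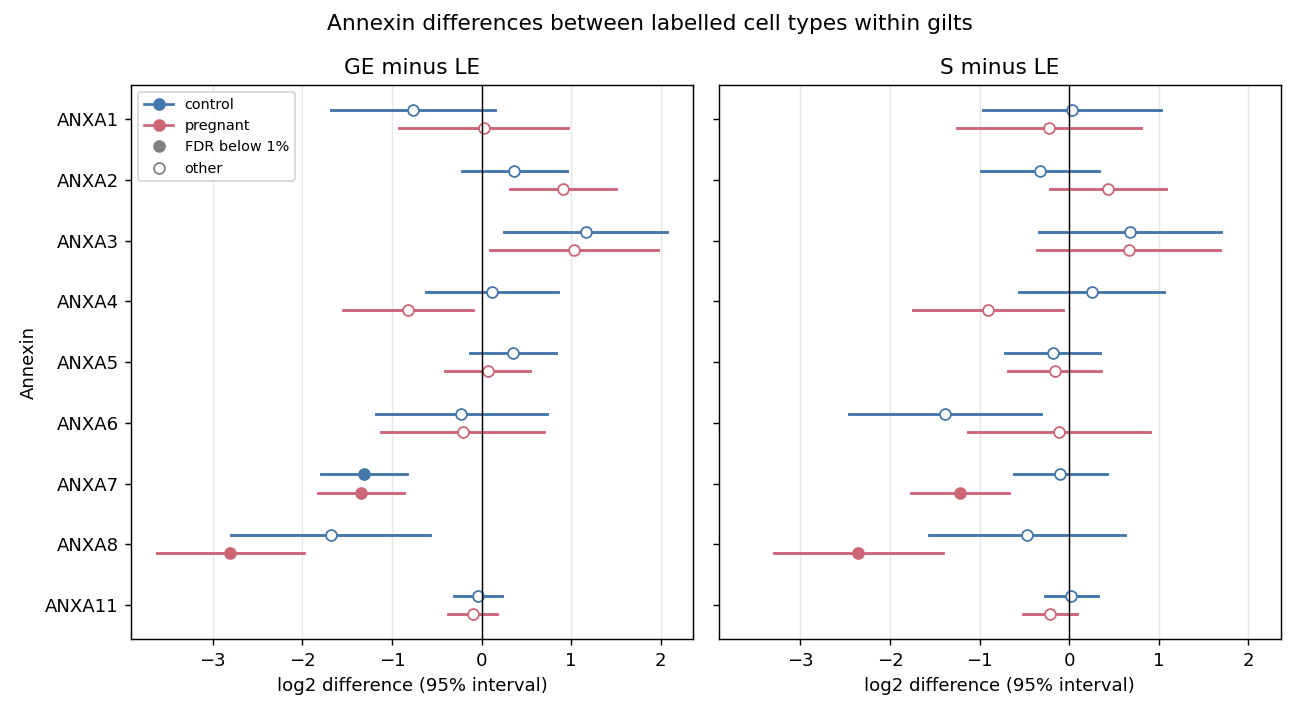
log2 differences of each annexin between labelled cell types of the same gilts with 95% intervals, GE minus LE (left) and S minus LE (right), in control (blue) and pregnant (red) gilts, filled at an FDR below 1%. ANXA8 in pregnant gilts lies furthest to the left, at −2.80 and −2.36, and ANXA7 lies near −1.3 for GE minus LE in both groups.

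The remaining members did not pass the FDR of 1% between cell types. In pregnant gilts ANXA2 was 1.88-fold higher in GE than in LE (log2 difference 0.91, edgeR FDR = 0.0247) and passed with the gilt as a random block (limma FDR = 0.00972), whereas the log2 difference of ANXA4 was −0.82 (edgeR FDR = 0.0807). In control gilts these values were 0.37 and 0.11. For ANXA3 the log2 difference GE minus LE was 1.16 in control and 1.03 in pregnant gilts (edgeR FDR = 0.0885 and 0.0916). ANXA6 in control gilts had a log2 difference S minus LE of −1.39 (edgeR FDR = 0.764).

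Interaction terms of the joint fit compared the response to pregnancy among LE, GE and S, and 0 of the 9 annexins passed the FDR of 1% (quasi-likelihood test of edgeR), beside 0.395% of all genes between LE and GE, 0.0188% between LE and S and 0% between GE and S. At an unadjusted p value below 0.05, there were 2 annexins between LE and S (ANXA7 and ANXA8), 1 between GE and S (ANXA7) and 0 between LE and GE, beside 15.2%, 9.9% and 17.3% of all genes. The log2 FC of ANXA8 in GE minus that in LE was −1.12 (95% interval −2.55 to 0.31, edgeR FDR = 0.433), and in S minus LE it was −1.88 (−3.32 to −0.45, edgeR FDR = 0.209). For ANXA4, which was called in LE only, the same differences were −0.94 (−1.97 to 0.09, edgeR FDR = 0.347) and −1.15 (−2.32 to 0.01, edgeR FDR = 0.331), so that a larger response in LE was not established. ANXA5 had differences of −0.28 (−0.95 to 0.39) and 0.02 (−0.72 to 0.77), and ANXA7 had −1.12 between S and LE (−1.87 to −0.38, edgeR FDR = 0.174).

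Levels were compared between members only per kilobase of the exons of each gene model, as a share of the summed level of the 9 annexins. ANXA4 was the most abundant annexin in all 6 groups, from 45.0% ± 9.9 (SD, n = 4) in control LE to 55.7% ± 8.0 (SD, n = 4) in pregnant LE. Its model of 955 exon bases lacks the 5' end and has hardly any sequence beyond the coding part, which bears on its level per length. ANXA2 was second in 4 of the 6 groups, with 9.8% to 24.6% over the group means. ANXA8 moved from the last place in control LE (0.39% ± 0.21, SD, n = 4) to the second place in pregnant LE (12.4% ± 2.9, SD, n = 4). In GE its share was 0.11% ± 0.03 (SD, n = 4) in control and 2.7% ± 1.2 (SD, n = 4) in pregnant gilts, and in S 0.29% ± 0.09 (SD, n = 3) and 3.9% ± 2.6 (SD, n = 3). The summed annexin CPM were 1419 to 1633 in control LE and 2754 to 3265 in pregnant LE, 1294 to 1636 and 1985 to 2281 in GE, and 1422 to 1520 and 1603 to 2593 in S, without overlap of the groups in any cell type. These sums are not per length, so that members with high CPM weigh most, and they include the members called above. Sums of other genes were not taken, so that the separation has no background beside it. In LE the mean of ANXA4 went from 448 to 1154 CPM and that of ANXA8 from 7.46 to 529 CPM, whereas ANXA1 went from 211 to 183 CPM. In GE, ANXA2 went from 404 to 651 CPM, ANXA4 from 502 to 653 CPM and ANXA5 from 162 to 265 CPM, none of them called. ANXA3 in GE went from 45.5 to 40.9 CPM.

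**Figure D5:**
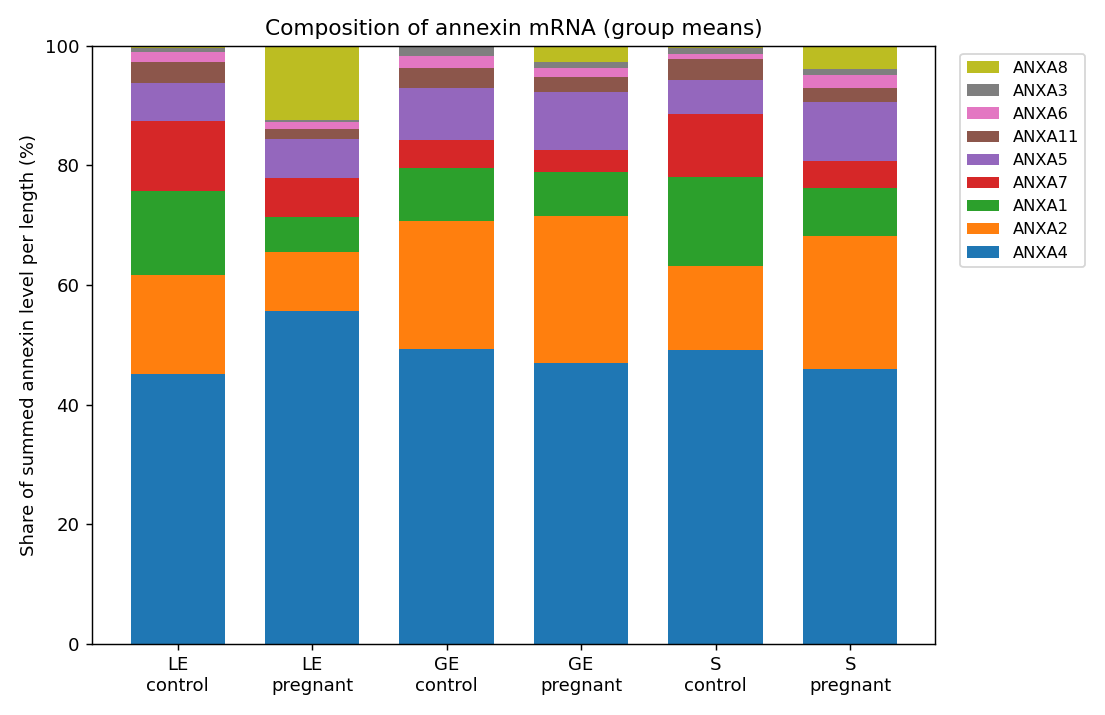
Share of each annexin in the summed annexin level per kilobase of exon, in percent, as stacked bars of the group means for the 6 combinations of labelled cell type and group. ANXA4 takes 45.0% to 55.7% of each bar, and ANXA8, the top segment, is visible in the pregnant bars with 12.4% in LE, 2.7% in GE and 3.9% in S.

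Proteins that work with annexins were examined from a list of 10 partners, of which 9 were listed in each cell type. In LE, 2 of the 9 were called higher and 0 lower, beside 6.33% and 3.71% of all genes. SRI (sorcin, a calcium sensor that binds ANXA7) rose from 139 ± 14.4 to 413 ± 117 CPM (SD, n = 4 each; log2 FC 1.57, edgeR FDR = 0.00103), and RASA1, a Ras GTPase activator that binds ANXA6, rose from 89.6 ± 10.8 to 222 ± 58.9 CPM (SD, n = 4 each; log2 FC 1.31, edgeR FDR = 0.00172). PEF1 and PDCD6, calcium sensors of the same family as sorcin, had log2 FC of 0.78 and 0.54 without a call (edgeR FDR = 0.0294 and 0.0466). In GE 1 of the 9 partners was called, beside 0.694% of all genes. This was S100A6, a calcium sensor that binds several annexins, which rose from 109 ± 39.2 to 312 ± 105 CPM (SD, n = 4 each; log2 FC 1.52, edgeR FDR = 0.28). S100A10, the partner of ANXA2, had log2 FC of 0.14 in LE, 0.75 in GE and 0.90 in S, where ANXA2 had 0.27, 0.69 and 1.07, none of them called. S100A11, which binds ANXA1, had 0.52, 0.50 and 0.11. No partner was called in S, where PLA2G4A, a cytosolic phospholipase inhibited by ANXA1, had the lowest value (log2 FC −1.72, edgeR FDR = 0.16). The median log2 FC of the partners was 0.52 in LE, 0.38 in GE and 0.23 in S.

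From the annexin receptors and the plasminogen system, 5 of 9 genes were listed in LE and 4 each in GE and S. PLAUR, the receptor of urokinase, was the 1 gene called of the 5 in LE, where 10% of all genes were called. It rose from 3.67 ± 1.5 to 13.2 ± 3.75 CPM (SD, n = 4 each; log2 FC 1.85, edgeR FDR = 0.00767), whereas the receptors of ANXA1 (FPR1, FPR2, FPR3) were listed in no table. No other gene of this list was called. Of 20 other calcium and phospholipid binding proteins (copines, ferlins, extended synaptotagmins and synaptotagmin-like proteins), 11 were listed in LE, 11 in GE and 12 in S. ESYT2, a tether between the endoplasmic reticulum and the plasma membrane, was the 1 gene called of the 11 in LE. This count was close to the share of 10% of all genes called there. ESYT2 had 90.0 ± 8.33 CPM in control and 306 ± 114 CPM in pregnant LE (SD, n = 4 each; log2 FC 1.77, edgeR FDR = 0.00123). No gene of this list was called in GE or in S. The median log2 FC of this list was −0.36 in LE, −0.11 in GE and 0.23 in S.

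Genes that control phosphatidylserine exposure, the lipid that ANXA5 binds, were represented by 9 of 10 genes in each cell type. In LE 1 of the 9 was called higher (beside 6.33% of all genes), 1 lower (beside 3.71%) and 7 were not called, with a median log2 FC of 0.04. The scramblase ANO6 rose in LE from 95.3 ± 23.0 to 193 ± 33.0 CPM (SD, n = 4 each; log2 FC 1.01, edgeR FDR = 0.00777). The flippase subunit ATP11B, which returns phospholipids to the inner face, fell by 1.0 on the log2 scale (466 ± 88.0 to 233 ± 55.5 CPM, SD, n = 4 each; edgeR FDR = 0.00913). No gene of this list was called in GE or S, and ATP11B had log2 FC of −0.14 and −1.08 there. The lists overlap with none of the annexins, and the shares of all genes given above for each cell type are the background for their counts.

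Across the 22 libraries, the genes with log2 CPM most like ANXA8 by Pearson correlation were S100A12 (0.98), LAMB3 (0.98) and LOC100153783 (0.97). For ANXA4 they were CCNG2 (0.92), ENPP5 (0.90) and AVL9 (0.90), and for ANXA5 TIMP1 (0.90), CCNYL1 (0.88) and TMEM214 (0.87). These correlations are descriptions, as all points share the group difference, the gilts and the normalization. Within the family, ANXA8 was most like ANXA5 (0.74) and ANXA4 (0.66), whereas ANXA4 and ANXA5 had a correlation of 0.21 with each other.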

How the data were processed

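The authors clipped adapters, removed 5 bases from read starts, mapped with Hisat2 to Sscrofa11.1, removed PCR duplicates by random adapter bases and filtered genes by CPM. Raw read counts were deposited as 1 table per cell type. The counting tool, use of strand and CPM cutoff are not given in the sources used here. Members and lists were chosen with earlier results of these data known, and all members were named. Each cell type was fitted alone in edgeR 4.0.16 (R 4.3.3; TMM, quasi-likelihood F test), with an FDR below 0.01 in LE and p below 0.0021 in GE and S. These thresholds were carried over from the study, where 0.0021 was the p value at the FDR threshold of LE. The fits here called 1146, 81 and 170 genes in LE, GE and S, fewer than the study reports. In the LE fit here, an FDR of 0.01 lay at a smaller p value than 0.0021. The rule for GE and S was therefore less strict than that for LE. A joint fit of 22 libraries used the gilt as a block. The titles share numbers across cell types, read as the same gilt because the study gives the number in a sample ID as that of the animal. Correlations of deviations within gilts had medians of 0.257 (LE-GE, 0.064 to 0.473), 0.314 (LE-S, 0.253 to 0.433) and 0.468 (GE-S, −0.176 to 0.685). No values for libraries of different gilts are given beside them. Intervals are 95%. A floor of 3 counts equals 0.746 to 3.36 CPM and covers counting error only. Coordinates and sequences are from NCBI RefSeq (Sscrofa11.1), in which all 12401 gene IDs were matched. Fits of the kind used for each cell type, and an interaction of LE and GE with the gilt as a block, were also run on simulated counts. The joint fit of the 22 libraries was not run on simulated counts. Alternatives used other normalizations, filters, tests (DESeq2 1.42.0, limma 3.58.1), thresholds, blocks and libraries.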

Additional observations from a re-analysis of the deposited data

Results flagged for a closer look

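The ANXA5 level of 308.9 CPM in control GE of gilt 02 lay far from the other 3 control GE libraries, and its gap to the nearest of them was 0.916 of the range of the group. Chance flags about 1 in 20 groups, and this was the 1 case among 38 groups of 4 libraries examined for the annexins. The same library had the highest fibroblast marker sum of GE (44868 CPM), whose part in the ANXA5 level was not tested.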

How the results depend on the processing

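Members called in LE numbered 3, 1 to 3 when each gilt was left out, and 2 with the 6 gilts that had an S library, where the call of ANXA5 was lost. In GE 1 was called, with 1 to 2 without single gilts, 2 without the GE libraries of gilts 01 and 02, and 0 when every library needed at least 10 counts, since that filter removed ANXA8. In S 1 was called, with 2 by the exact test, the likelihood ratio test and DESeq2 (440, 463 and 512 of 11532 genes, beside 170), 0 at an FDR of 0.05 or 0.01, and 0 to 2 without single gilts.

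A shared number was read as the same animal, so the gilt was the replicate block of the joint fit. Without the block, annexins called between LE and GE of control gilts went from 1 to 0 and between LE and S of pregnant gilts from 2 to 0, and no other count of the joint fit changed. With only the 2 cell types compared, and without the GE library of gilt 02 and the S library of gilt 01 (an alternative chosen after seeing the data, like that without GE of gilts 01 and 02), both counts were 0. Leaving out single gilts gave 0 to 1 and 0 to 2. At an FDR of 0.05 there were 2 between LE and GE (1248 of 10643 genes) and 1 (main 0) between GE and S (146 genes) of control gilts, and 3 (main 2, ANXA2 added) between LE and GE of pregnant gilts (3143 genes). A random block also gave 3 there. The 6 gilts with S gave 1 (main 2) between LE and GE and 0 between LE and S of pregnant gilts, and library size alone gave 1 for the latter.

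Signs turned only for log2 values without a call. By library size alone, which moved the median of all genes in LE from 0.01 to −0.14, ANXA3 was −0.012 and ANXA11 −0.039 in LE, and ANXA3 −0.063 in S. With at least 10 counts ANXA3 in S was −0.0036. With the 6 gilts, ANXA1 in LE was 0.0076, and ANXA6 and ANXA11 in GE were −0.093 and −0.042. Without single gilts, LE ranged from −0.93 to 0.082 (ANXA1), −0.15 to 0.35 (ANXA3) and −0.053 to 0.63 (ANXA6), GE from −0.38 to 0.16 (ANXA3), −0.34 to 1.01 (ANXA6) and −0.017 to 0.12 (ANXA11), and S from −0.39 to 0.25 (ANXA3) and −0.11 to 0.68 (ANXA4). The response of ANXA7 in GE minus LE was 0.10 by library size, 0.27 with the 6 gilts, 0.0045 without GE of gilt 02 and S of gilt 01, and −0.25 to 0.17 without single gilts. For ANXA5 it was 0.14 without those 2 libraries and −0.45 to 0.082 without single gilts, and in S minus LE −0.089 with the 6 gilts, −0.095 with the 2 cell types, −0.079 without those 2 libraries and −0.033 to 0.22 without single gilts. In pregnant gilts S minus GE ranged from −0.22 to 0.38 (ANXA7) and −0.31 to 1.05 (ANXA8). The causes were not tested.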

Other observations

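ANXA13, an annexin of intestinal and renal epithelium that is not among the named members, was listed in GE only. It had 7.82, 37.2, 3.33 and 11.3 CPM in control gilts 02, 04, 06 and 13 and 0.505, 4.53, 0.29 and 3.53 CPM in pregnant gilts 01, 03, 05 and 14, the pregnant values of gilts 01 and 05 resting on 1 count each. The groups overlapped, and the log2 FC was −2.67 ± 0.93 (SE; quasi-likelihood test of edgeR, FDR = 0.479). As genes had been filtered by CPM, ANXA13 may be listed in GE through its control libraries alone. A gene listed in that way could hardly be higher in pregnant gilts, so the direction of this difference cannot be read as a result. ANXA9 was listed in no table.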
